A study of Homo sapiens with 6 samples.

Results

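ADNP and 6 genes whose proteins work with it on chromatin (ADNP2, CHD4, CBX1, CBX3, CBX5 and POGZ) were followed in PANC-1 cells with and without maslinic acid (MA). They are 7 of the 58825 genes in the table, and all 7 were among the 17774 genes tested. ADNP was chosen by its difference between MA PANC-1 and PANC-1 in these same libraries, so its values are given as a description without a test. The other 6 were chosen for the complexes they share with ADNP. PANC-1 is an established line of human pancreatic carcinoma cells, and MA is a triterpenoid acid found in olives. MA PANC-1 stands for 3 samples given 40 µM MA for 24 h, and PANC-1 for 3 samples at 0 µM for the same time, with no genetic change in either group. The paper's culture methods name DMSO as what cells received in place of MA. Untreated below therefore means without MA, and not necessarily without vehicle. Poly(A) RNA was sequenced, with estimated count totals of 56978375, 63984133 and 58181114 for MA PANC-1 1 to 3 and 70275355, 65607669 and 59422939 for PANC-1 1 to 3. In every library this total exceeds the valid reads that the paper lists. The estimated counts here are thus not numbers of reads or a sequencing depth. Everything below rests on 1 cell line, 1 dose and 1 time. In bulk RNA, fewer cells of a kind and less RNA per cell cannot be told apart.

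ADNP is a homeobox and zinc finger protein that binds DNA and assembles with the remodelling ATPase CHD4 and the heterochromatin proteins HP1β and HP1γ into the ChAHP complex, which keeps its target loci repressed and limits CTCF binding at some repeats. ADNP2, its paralog, builds a related complex. CBX1, CBX3 and CBX5 encode HP1β, HP1γ and HP1α, which read methylated histone tails through their chromodomain, and POGZ is a zinc finger protein that binds HP1. CHD4 also serves as an ATPase of the NuRD deacetylase complex.

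The 250 bases before the upstream start site of ADNP are shown because ADNP is the member whose level differed most between the groups. They lie at chr20:50931438-50931687 on the minus strand of GRCh38.p14, in RefSeq, and the RefSeq start site, at 50931437, is the end of the gene in the deposited table. The sequence runs 5′ to 3′ toward the start site, and capitals mark the bases of the core of a cAMP response element (TGACG, here as its reverse complement CGTCA) and of an ETS core (CGGAAG, here as CTTCCG).
ADNP promoter: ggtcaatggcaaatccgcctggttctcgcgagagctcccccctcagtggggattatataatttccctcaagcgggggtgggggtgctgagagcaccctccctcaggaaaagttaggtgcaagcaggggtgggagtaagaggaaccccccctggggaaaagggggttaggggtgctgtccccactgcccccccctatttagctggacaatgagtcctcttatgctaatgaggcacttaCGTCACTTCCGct
The window holds 57.6% G and C and 6 CpG, where the medians of 35116 RefSeq promoters of this length are 58% and 11. On either strand it had no TATA box (TATAAA), no CCAAT box, no GC box (GGGCGG), no E box (CACGTG), no full cAMP response element (TGACGTCA) and no longer ETS core (CCGGAAG). The short motif TGACG occurs in 21.2% of the promoters and CGGAAG in 16.5%, and these motifs were added after the sequence had been read. Of the 7 members, 6 have an entry in the promoter table, and ADNP2 was not matched. RefSeq lists another start site of ADNP, at 50909791, whose window has 1 TATA box, 1 CCAAT box and 2 of the short motif, and lies within the gene.

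The libraries were checked before the genes. The epithelial keratins KRT8 and KRT18 averaged 198 and 310 FPKM, and VIM, which encodes vimentin, 617 FPKM. KRT7, another keratin, averaged only 1.80 FPKM, while KRT19 and EPCAM, also epithelial, lay under the expression filter at 0.0533 and 0.0713 FPKM. FPKM counts fragments per length of gene and per sequencing depth, a level that can be compared between genes. CDKN2A, deleted in PANC-1, had counts of 0, 0 and 2 in MA PANC-1 and 5, 0 and 19 in PANC-1. The acinar genes PRSS1 and CPA1, the islet genes INS and GCG, the T cell gene CD3E and the hepatocyte gene ALB had no count in any library. The acinar gene CELA3A had 1 count, in PANC-1 1, the leukocyte gene PTPRC had 8, in MA PANC-1 1, and the endothelial gene PECAM1 had 8, 0 and 0 in MA PANC-1 and 16, 8 and 16 in PANC-1. All of these lay under the expression filter.

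MA PANC-1 2 stood apart from the other 5 libraries. On the first principal component, which held 26.4% of the variance, it lay at −73.6, and the others lay between −29.5 and 44.9. The mean GC content of its counted transcripts was 51.8%, against 50.4% to 50.9% elsewhere. Where leaving it out moved the fold change of a member or of a named list gene, or the median of the partners or of a list, by over 1.5 times or changed its sign, the value without it is given as well. The part of GC content in the differences was not tested beyond an alternative, chosen after seeing the data, in which a smooth GC trend was removed from each library. Under it the median log2 fold change of all genes tested was 0.051, against −0.0017 in the main fit. Each value given with the GC trend removed is to be read beside that median.

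ADNP (ENSG00000101126, chromosome 20, 50888916 to 50931437, minus strand) measured 14.3, 13.1 and 14.7 FPKM after MA and 3.40, 3.78 and 2.75 FPKM without it. The groups were far apart, and the lowest treated sample was well over the highest untreated one. The means were 14.1 ± 0.799 FPKM and 3.31 ± 0.524 FPKM (SD, n = 3 each), a 4.25-fold difference of means. The estimated counts behind them were 8188, 8487 and 8606 against 2407, 2505 and 1641. On the log2 scale the fitted difference was 2.12 (SE 0.14), and with any 1 library left out it lay between 2.00 and 2.23, with 2.13 in the absence of MA PANC-1 2. Removing the GC trend gave 2.27. Among the 17774 genes ordered by level, ADNP moved from place 7963 in PANC-1 to place 2951 in MA PANC-1, that is from the 55.2nd to the 83.4th percentile.

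**Figure D1:**
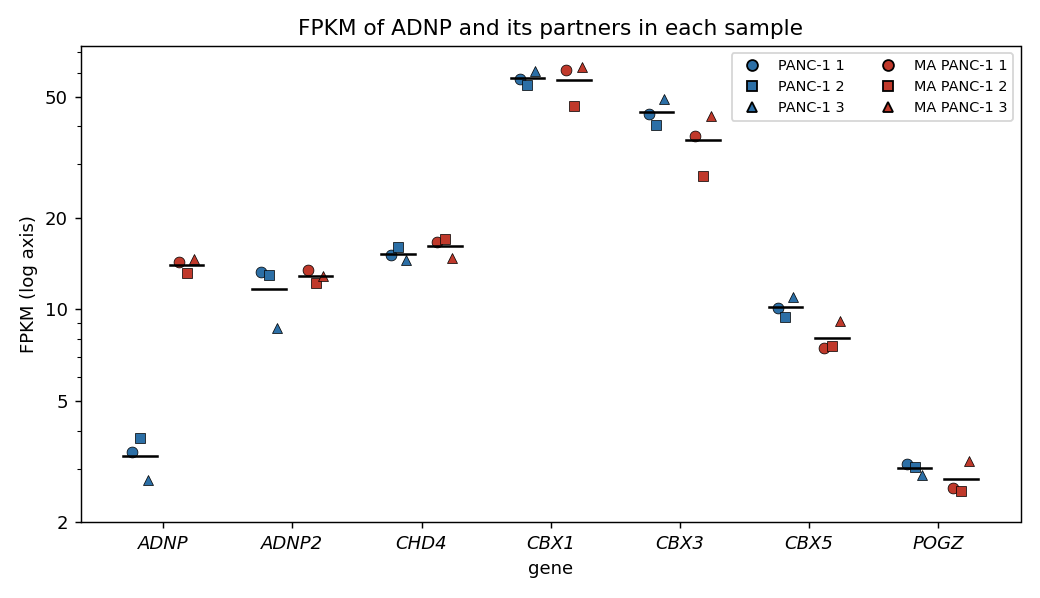
Level of each of the 7 genes in FPKM on a log axis, with 1 point per library and a bar at the mean of each group of 3. ADNP lies at 13.1 to 14.7 FPKM after MA and at 2.75 to 3.78 FPKM in PANC-1, while the groups overlap for every other gene except CBX5.

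None of the 6 partners passed the test. By edgeR's quasi-likelihood test with Benjamini-Hochberg adjustment over all genes, 0 of 6 had an adjusted p under 0.05, where 0.0394% of all genes tested did, and by DESeq2 it was 0 of 6 against 1.48% of all genes. DESeq2 gave some genes no adjusted p, and the 1.48% counts these as not called, so it understates the share among genes that could be called. Before adjustment, CBX5 alone was under 0.05, on the lower side, where 5.86% of all genes were, and 0 of 6 were on the higher side, where 5.37% were. CBX5 was also the single partner whose groups did not overlap, lower in MA PANC-1 as 11.1% of all genes were, and none of the 6 was without overlap on the higher side, as 8.79% were. The median log2 fold change of the 6 partners was −0.03, or −0.0078 without MA PANC-1 2, and that of all genes tested was −0.00. With the GC trend removed these medians were 0.011 for the partners and 0.051 for all genes.

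ADNP2 (ENSG00000101544, chromosome 18, 80109262 to 80140346, plus strand), the zinc finger homeobox paralog of ADNP, had 13.5, 12.2 and 12.9 FPKM in MA PANC-1 and 13.2, 13.0 and 8.71 FPKM in PANC-1. PANC-1 3 was the low sample, and the other 5 lay close together. The means of 12.9 ± 0.659 and 11.6 ± 2.54 FPKM (SD, n = 3 each) gave a log2 fold change of 0.18 (SE 0.17, edgeR adjusted p = 0.690), which came to 0.00 without PANC-1 3. It was 0.28 without PANC-1 1 and 0.26 without PANC-1 2. PANC-1 3 was also the lowest sample for ADNP, at 2.75 FPKM.

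CHD4 (ENSG00000111642, chromosome 12, 6570082 to 6614524, minus strand), the ATPase of ChAHP and of NuRD, had 16.6, 17.0 and 14.8 FPKM in MA PANC-1 and 15.2, 16.0 and 14.5 FPKM in PANC-1. The groups overlapped, with MA PANC-1 3 in the range of the untreated samples. The means were 16.1 ± 1.21 and 15.2 ± 0.730 FPKM (SD, n = 3 each), and the log2 fold change was 0.12 (SE 0.11, edgeR adjusted p = 0.663), or 0.04 without MA PANC-1 2 and 0.20 without MA PANC-1 3.

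CBX1 (ENSG00000108468, chromosome 17, 48070052 to 48101478, minus strand), which encodes HP1β, was the most abundant of the 7, with 61.4, 46.6 and 62.5 FPKM after MA and 57.2, 54.6 and 60.9 FPKM in PANC-1. MA PANC-1 2 was the lowest of all 6 libraries, at 0.753 of the mean of the other 2 treated samples, and the groups overlapped. The log2 fold change was 0.01 (SE 0.11, edgeR adjusted p = 0.969), and it was 0.11 without MA PANC-1 2.

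CBX3 (ENSG00000122565, chromosome 7, 26201162 to 26213607, plus strand), which encodes HP1γ, had 37.2, 27.4 and 43.3 FPKM in MA PANC-1 and 43.8, 40.5 and 49.2 FPKM in PANC-1. MA PANC-1 2 was again the lowest, at 0.682 of the mean of the other treated samples, and MA PANC-1 3 reached into the untreated range. The means were 36.0 ± 8.00 and 44.5 ± 4.41 FPKM (SD, n = 3 each), with a log2 fold change of −0.28 (SE 0.15, edgeR adjusted p = 0.503). It was −0.15 without MA PANC-1 2 and −0.02 with the GC trend removed. The transcripts of CBX3 have 40.4% G and C, the 12.1th percentile of the genes tested.

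CBX5 (ENSG00000094916, chromosome 12, 54230942 to 54280133, minus strand), which encodes HP1α, had 7.45, 7.60 and 9.15 FPKM in MA PANC-1 and 10.1, 9.48 and 11.0 FPKM in PANC-1. Every treated sample lay under every untreated one, with MA PANC-1 3 and PANC-1 2 the closest. The means were 8.06 ± 0.940 and 10.2 ± 0.768 FPKM (SD, n = 3 each), a ratio of 0.791, and an exact permutation test, two-sided, gave p = 0.1 (0.6 adjusted over the 6 partners), the smallest value that 3 against 3 can give. The log2 fold change was −0.30 (SE 0.11), with an adjusted p of 0.429 by edgeR and 0.274 by DESeq2, so the difference did not pass. It was −0.30 without MA PANC-1 2 as well, and ranged from −0.38 to −0.24 over the fits that each omit 1 library. Removing the GC trend gave −0.07. CBX5 transcripts have 41.6% G and C, the 16.7th percentile.

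POGZ (ENSG00000143442, chromosome 1, 151402724 to 151459215, minus strand), the HP1-binding zinc finger protein, was the least abundant member after MA at 2.60, 2.54 and 3.18 FPKM, against 3.11, 3.05 and 2.86 FPKM in PANC-1. The highest single value was in MA PANC-1 3, and the groups overlapped. The log2 fold change was −0.08 (SE 0.11, edgeR adjusted p = 0.805). It lay between −0.17, without MA PANC-1 3, and −0.025, without MA PANC-1 1, when 1 library was omitted. Removing the GC trend gave −0.037.

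**Figure D2:**
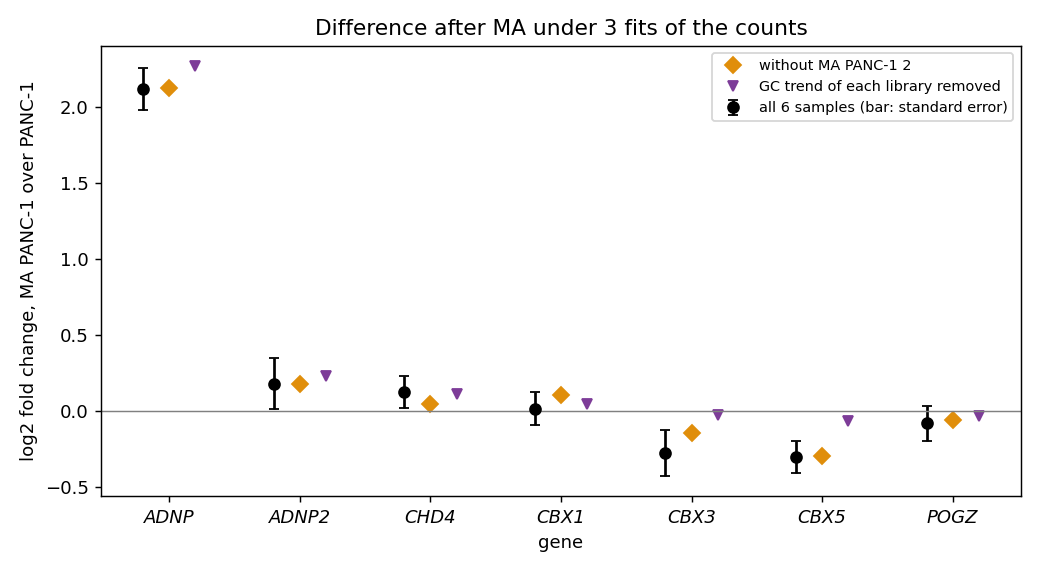
log2 fold change of each of the 7 genes, MA PANC-1 over PANC-1, from edgeR on all 6 libraries (black, bar 1 SE), without MA PANC-1 2 (orange) and after removal of the GC trend (purple). ADNP lies at 2.12, 2.13 and 2.27, CBX3 moves from −0.28 to −0.15 and −0.02, and CBX5 from −0.30 to −0.30 and −0.07. With the GC trend removed the median of all genes tested was 0.051.

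The order of the levels differed between the groups through ADNP. In PANC-1 the order of mean FPKM was CBX1 at 57.6, CBX3 at 44.5, CHD4 at 15.2, ADNP2 at 11.6, CBX5 at 10.2, ADNP at 3.31 and POGZ at 3.00. Neighbours in this order were separate in every sample, apart from ADNP2 with CBX5 and ADNP with POGZ, whose samples overlapped. In MA PANC-1 it was CBX1 at 56.9, CBX3 at 36.0, CHD4 at 16.1, ADNP at 14.1, ADNP2 at 12.9, CBX5 at 8.06 and POGZ at 2.77. There ADNP and ADNP2 overlapped and the other neighbours did not. These are RNA levels per length, and no protein amount was analysed here.

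Ratios within a library show the balance of the paralogs and of the complex members. ADNP over ADNP2 was 1.06, 1.08 and 1.14 in MA PANC-1 and 0.256, 0.292 and 0.315 in PANC-1, so the paralogs were near equal in RNA after MA, while ADNP was the minor one without it. ADNP over CHD4 was 0.862, 0.772 and 0.994 against 0.224, 0.236 and 0.189. Both ratios contain the difference by which ADNP was chosen. ADNP2 over CHD4, which does not, averaged 0.800 ± 0.0782 in MA PANC-1 and 0.762 ± 0.144 in PANC-1 (SD, n = 3 each), with overlapping samples and p = 0.8 by an exact two-sided permutation test.

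The summed FPKM of the 3 HP1 genes was 106, 81.7 and 115 in MA PANC-1 and 111, 105 and 121 in PANC-1, with overlap between the groups and p = 0.5 by the exact permutation test. Within that sum CBX1 took 57.9%, 57.1% and 54.4% in MA PANC-1 and 51.5%, 52.2% and 50.3% in PANC-1. CBX3 took 35.1%, 33.6% and 37.7% against 39.4%, 38.7% and 40.7%. For both shares the groups did not overlap, with CBX1 on the higher side and CBX3 on the lower, and the exact permutation test gave p = 0.1 for each, the smallest possible. The share of CBX5 was 7.02%, 9.30% and 7.95% against 9.09%, 9.06% and 9.09%, with overlap and p = 0.4 by the exact permutation test. The ratio of CBX1 to CBX3 was 1.65, 1.70 and 1.44 in MA PANC-1 and 1.31, 1.35 and 1.24 in PANC-1, without overlap and with p = 0.1 by the exact permutation test. CHD4 over POGZ averaged 5.92 ± 1.12 and 5.07 ± 0.185 (SD, n = 3 each), with overlap and p = 0.4 by the exact permutation test. Adjusted over these 7 sums, shares and ratios, the exact permutation p-values were 0.233 for the 3 at 0.1 and from 0.56 to 0.8 for the others, and 3 against 3 samples cannot take any of them under 0.05. The 3 at 0.1 are the shares of CBX1 and CBX3 and the ratio of those shares. They restate nearly the same contrast and do not count as 3 separate results, although the adjustment treats them so. CBX1 transcripts have 48.4% G and C and CBX3 transcripts 40.4%. With the GC trend removed the log2 fold changes of CBX1 and CBX3 were 0.05 and −0.02, where the median of all genes was 0.051. In the main fit they were 0.01 and −0.28, where that median was −0.0017. The shares and the ratio themselves were not computed on corrected values.

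**Figure D3:**
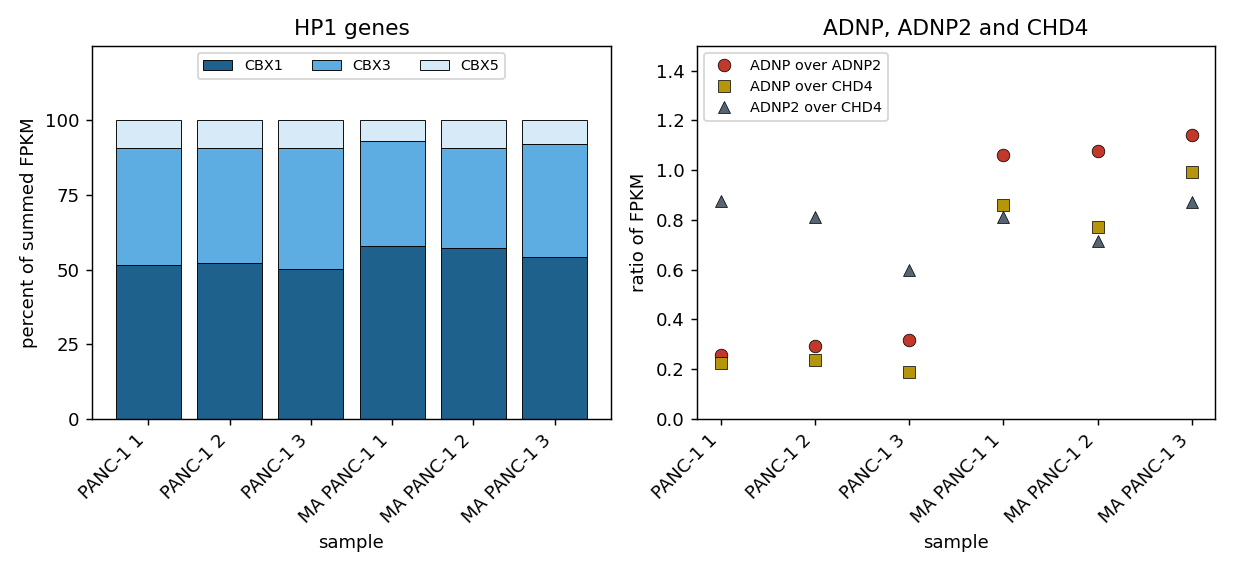
On the left, the percent that CBX1, CBX3 and CBX5 each take of their summed FPKM, with 1 stacked bar per library, and on the right 3 ratios of FPKM with 1 point per library. CBX1 takes 54.4% to 57.9% in MA PANC-1 and 50.3% to 52.2% in PANC-1, and ADNP over ADNP2 is 1.06 to 1.14 against 0.256 to 0.315.

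Across the 6 libraries, Pearson's r of each partner with ADNP, on log2(FPKM + 0.1), was 0.50 for ADNP2, 0.51 for CHD4, −0.09 for CBX1, −0.61 for CBX3, −0.85 for CBX5 and −0.43 for POGZ. The 6 points fall into the 2 groups and share their libraries, so the coefficients mostly restate which group is higher. Among 11469 genes with a mean of at least 1 FPKM, those with the highest r to ADNP were SH3GL1 (0.997), SAE1 (0.991), Z83844 (0.988), FAM229B (0.986) and MPZL3 (0.985). Their log2 fold changes were 0.13, 0.26, 8.81, 0.41 and 0.25, so that 4 of the 5 separated the groups by a much smaller step than ADNP. SAE1, a subunit of the SUMO-activating enzyme, had 83.4, 82.7 and 82.1 FPKM in MA PANC-1 and 72.1, 70.9 and 70.1 FPKM in PANC-1. Z83844 had 9.35, 12.5 and 10.5 FPKM against 0.0645, 0.000218 and 0.0001, the last being the value listed for no read, and its fold change thus depends on the prior count of the fit.

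The chromatin genes around the members were taken from 5 lists. Outside the members these hold 65 genes, all of them tested, and 0 had an adjusted p under 0.05 by edgeR or by DESeq2. Before adjustment 4 were under 0.05 on the higher side and 8 on the lower, 6.15% and 12.3% of the 65, where all genes gave 5.37% and 5.86%. These 12 became 7, 6, 6 and 5 without MA PANC-1 1, PANC-1 1, PANC-1 2 or PANC-1 3, and 19 without MA PANC-1 3. In the same order the share of all genes under 0.05 went from 11.2% to 7.93%, 6.63%, 7.72% and 6.76%, and to 18.1%. The groups did not overlap for 6 genes on the higher side and 13 on the lower, 9.23% and 20% of the 65, where all genes gave 8.79% and 11.1%. The median log2 fold change was −0.00, as over all genes tested. CHD4 is also counted in the NuRD list, and CHD3 and CHD5 stand in both the NuRD list and the last list.

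NuRD joins a chromatin remodeller to histone deacetylases. Of its 15 listed subunits, 0 passed the test, and before adjustment 1 was under 0.05 on the higher side and 2 on the lower (6.67% and 13.3%, against 5.37% and 5.86% of all genes), with a median log2 fold change of 0.03. HDAC1, the most abundant and a deacetylase of the complex, had 72.2, 69.6 and 73.5 FPKM in MA PANC-1 and 68.8, 56.9 and 59.5 FPKM in PANC-1. These samples did not overlap, and the log2 fold change was 0.25 (SE 0.09, edgeR adjusted p = 0.431). MTA2, which scaffolds the deacetylases, was at 0.14, at 0.067 without MA PANC-1 2 and at 0.093 with the GC trend removed. CHD5, the alternative ATPase, had 9.30, 9.33 and 9.34 FPKM against 12.4, 12.8 and 11.4 FPKM, with all treated samples lower, a log2 fold change of −0.35 (SE 0.09, edgeR adjusted p = 0.388), and −0.45 once the GC trend was removed. HDAC2, the paralog of HDAC1, was at −0.29 (edgeR adjusted p = 0.429) and at 0.01 with the GC trend removed.

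Among the 14 genes of HP1-associated heterochromatin, 0 were under 0.05 even before adjustment, against 5.37% of all genes on the higher side and 5.86% on the lower, and the median log2 fold change was 0.06. Without MA PANC-1 2 the median was −0.036, and 1 gene, SUV39H2, a histone methyltransferase named after its values were seen, was under 0.05 before adjustment, as 10.3% of all genes then were, at a log2 fold change of 0.50, where all 6 libraries gave 0.21. TRIM28, the corepressor that brings HP1 and the methyltransferase SETDB1 to zinc finger proteins, was the most abundant, with 141, 176 and 132 FPKM after MA and 138, 116 and 135 FPKM in PANC-1. MA PANC-1 2 was the high sample and the groups overlapped, with a log2 fold change of 0.25 (SE 0.15, edgeR adjusted p = 0.538), which was 0.074 without that library and 0.14 with the GC trend removed. CHAF1A, a chromatin assembly subunit that binds HP1, was at 0.19, or 0.10 without MA PANC-1 2 and 0.11 with the GC trend removed. ATF7IP, the partner of SETDB1, was at −0.24, or −0.0059 with the GC trend removed.

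Of 17 SWI/SNF subunits, which form an ATP-driven remodeller that ADNP has been reported to bind, 0 passed the test, 1 was under 0.05 on either side before adjustment (5.88% each, against 5.37% and 5.86% of all genes), and the median log2 fold change was 0.03, or −0.042 without MA PANC-1 2. Without MA PANC-1 2 these counts were 0 higher and 1 lower, where 10.3% of all genes were under 0.05 in total. With the GC trend removed they were 3 and 1, where 13.2% of all genes were under 0.05 in total. The median was then 0.048, where that of all genes was 0.051. ACTL6A and SMARCC1, the most abundant, were at 0.03 and −0.10, and without MA PANC-1 2 ACTL6A was at 0.13. With the GC trend removed they were at 0.22 and −0.03. PBRM1, a bromodomain subunit, had 4.52, 3.47 and 5.15 FPKM in MA PANC-1 and 6.25, 5.56 and 6.46 FPKM in PANC-1, every treated sample lower, with a log2 fold change of −0.44 (SE 0.14, edgeR adjusted p = 0.399). DPF2 was at 0.26 (edgeR adjusted p = 0.441), and at 0.17 without MA PANC-1 2. The ATPases SMARCA4 and SMARCA2, named after their values were seen, averaged only 0.778 and 0.646 FPKM over the 6 libraries. Their log2 fold changes were −0.05 and 0.41, and −0.11 and 0.41 without MA PANC-1 2. With the GC trend removed they were −0.15 and 0.50. SMARCA2 was then under 0.05 before adjustment, as 13.2% of all genes were.

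CTCF and cohesin, which hold chromatin loops, gave 8 genes, of which 0 passed and 2 were under 0.05 on the lower side before adjustment, 25% against 5.86% of all genes. The median log2 fold change was −0.18, −0.09 without MA PANC-1 2 and 0.02 with the GC trend removed, where that of all genes was 0.051. The median transcript of the list has 40.3% G and C. SMC1A and RAD21, ring subunits and the most abundant of the list, were at −0.01 and −0.22, and at −0.02 and −0.12 without MA PANC-1 2. With the GC trend removed they were at 0.05 and −0.00014. NIPBL, the cohesin loader, had 2.09, 0.872 and 2.43 FPKM in MA PANC-1 and 3.02, 3.14 and 3.65 FPKM in PANC-1. MA PANC-1 2 was by far the lowest, and the log2 fold change of −0.84 (SE 0.32, edgeR adjusted p = 0.432) became −0.53 without it. SMC3, another ring subunit, went from −0.70 (edgeR adjusted p = 0.439) to −0.43 in the same way. With the GC trend removed NIPBL and SMC3 were at −0.62 and −0.46.

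The last list, 14 other chromobox and chromodomain helicase genes, had 2 members under 0.05 on the higher side and 4 on the lower before adjustment (14.3% and 28.6%, against 5.37% and 5.86% of all genes), 0 after it, and a median log2 fold change of −0.04, or −0.064 without MA PANC-1 2. With the GC trend removed the median was −0.076. CBX6 had 22.4, 23.3 and 20.3 FPKM in MA PANC-1 and 18.1, 18.0 and 18.0 FPKM in PANC-1, without overlap, a log2 fold change of 0.33 (SE 0.10, edgeR adjusted p = 0.394). CBX6 encodes a chromodomain protein of Polycomb complexes and not of HP1. On the lower side stood CHD5, described above, with CHD1, CHD6 and CHD9 at −0.65, −0.32 and −0.71, these 3 named after their values were seen. Without MA PANC-1 2, CHD1 was at −0.39 and CHD9 at −0.44, and with the GC trend removed they were at −0.32 and −0.43.

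**Figure D4:**
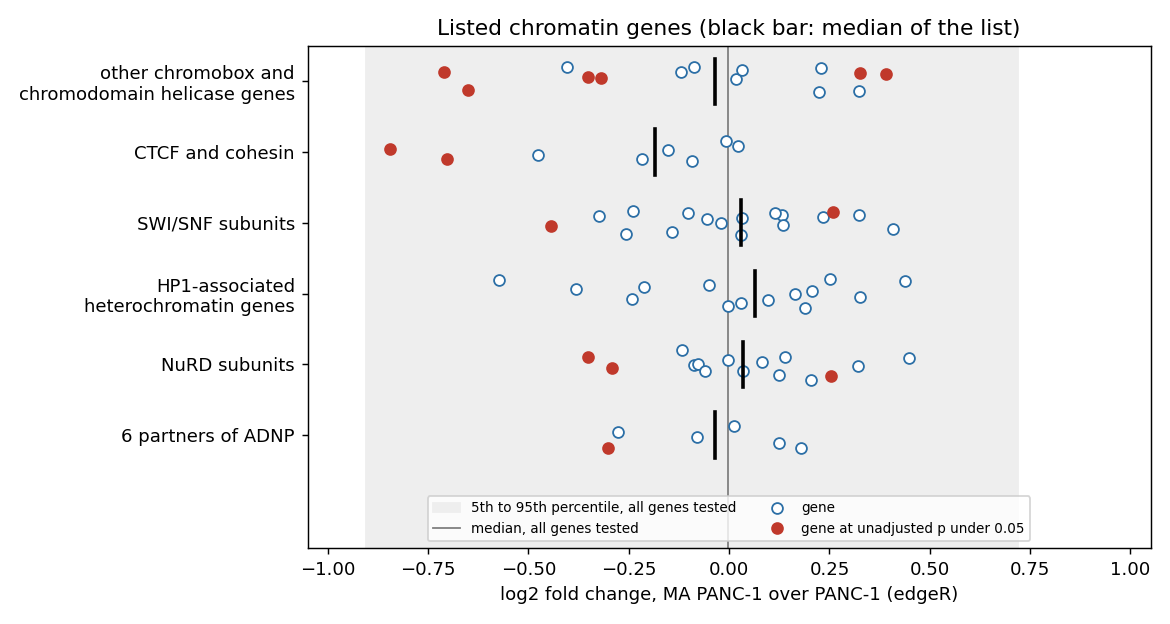
log2 fold change, MA PANC-1 over PANC-1, of the 6 partners and of the genes of each list, with 1 point per gene and a bar at the median of the list. The grey band spans the 5th to 95th percentile of all genes tested, −0.90 to 0.72, and every point lies in it.

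The genes beside ADNP on chromosome 20 were at smaller or opposite differences. Because ADNP was chosen by its difference, and only 7.24% of all genes tested differed by at least 2-fold either way, this contrast is a description without weight. Of the 9 genes tested with an end within 500 kb of it, 0 had an adjusted p under 0.05 by edgeR (0.0394% of all genes), 3 were under 0.05 before adjustment (11.2% of all genes), and 1, NFATC2, was called by DESeq2 (adjusted p = 0.0402), as 1.48% of all genes were. PTPN1, a tyrosine phosphatase, was at 0.24 (SE 0.09), BCAS4 at 0.35 (SE 0.15) and NFATC2, a transcription factor of calcium signalling, at −0.60 (SE 0.15), with adjusted p-values of 0.435, 0.444 and 0.388 by edgeR. For these 3 the groups did not overlap, as for 8.79% of all genes on the higher side and 11.1% on the lower. The other protein-coding neighbours, DPM1, MOCS3 and KCNG1 on 1 side and PARD6B on the other, were at −0.09, −0.17, 0.14 and −0.16, with overlapping groups. AL353653 was at −1.42 on counts of 0 to 19.

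ADNP-AS1 is read from the opposite strand and spans the promoter window shown above. It overlaps the gene body of ADNP by 454 bases and its exons by 121. Its counts were 33, 23 and 23 in MA PANC-1 and 61, 24 and 53 in PANC-1, overlapping between the groups, with a log2 fold change of −0.64 (SE 0.48, edgeR adjusted p = 0.619). The libraries keep the strand, but whether the counting used it is not given in the sources used here, so reads in the shared bases cannot be assigned with certainty. The whole count of ADNP-AS1 was at most 61, against at least 1641 for ADNP.

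**Figure D5:**
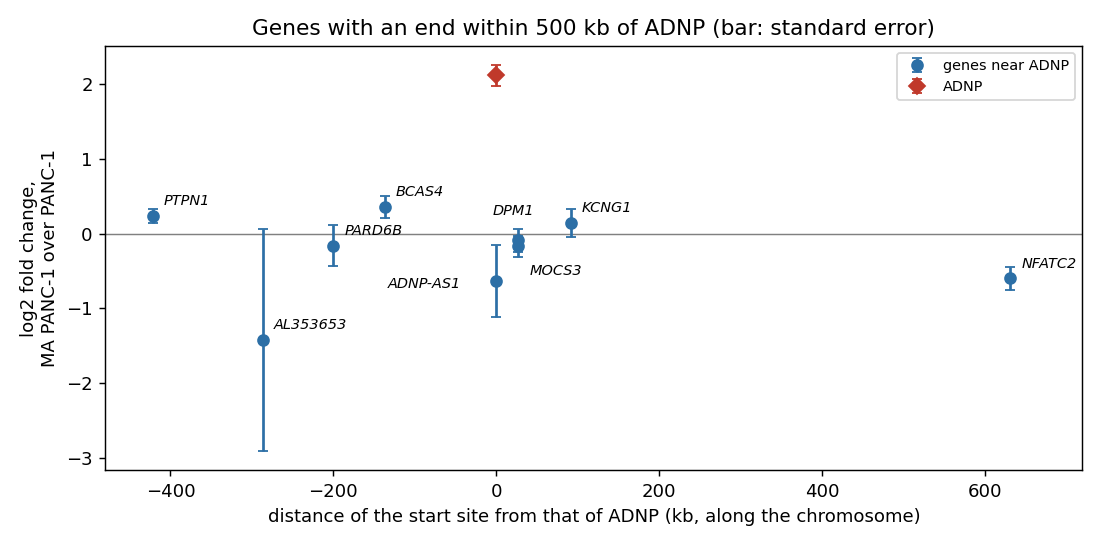
log2 fold change, MA PANC-1 over PANC-1, of ADNP and of the 9 genes with an end within 500 kb, against the distance of their start site from that of ADNP in kb (bars: 1 SE). ADNP, which was chosen by this difference, stands at 2.12, and the other genes lie between −1.42 and 0.35.

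Copies and overlapping genes of the partners were counted as well. CBX3 starts head to head with HNRNPA2B1 and overlaps it by 368 bases, and HNRNPA2B1, an RNA-binding protein gene, was at a log2 fold change of −0.05. Of 14 pseudogenes named after CBX1, CBX3 and CBX5, CBX3P9 alone had more than 19 counts in all, with 246, 172 and 376 in MA PANC-1 and 350, 217 and 312 in PANC-1, against at least 10159 for CBX3. How reads shared by a gene and its copies were divided is not given in the sources used here. SCAT2, antisense to CBX5, had at most 39 counts in a library, an antisense transcript in CHD4, AC006064 (ENSG00000247853), at most 107, AC078778 beside CBX5 at most 9, SCARNA11 in CHD4 at most 3 and MIR3198-2 in CBX5 a single count in each. PSMD10P1 in ADNP, the read-through gene over CHD4 (ENSG00000285238), RNU6-1201P in CBX1, RN7SL390P in CBX5 and RNY4P25 in POGZ had none. No gene overlaps ADNP on its own strand, and those that overlap CHD4, CBX1 or CBX5 so had at most 3 counts in a library.

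In the gene annotation deposited with the table, all 7 members carry the terms nucleus and protein binding. ADNP, ADNP2, CHD4 and POGZ share DNA binding and metal ion binding, and CBX1, CBX3 and CBX5 share nuclear heterochromatin, a term held by 19 of the genes tested. ADNP carries chromatin binding with CBX1 and CBX5. The annotation was not used to choose the members, although the same knowledge of their proteins stands behind both.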

How the data were processed

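RNA of 6 PANC-1 samples, 3 given MA and 3 without, was grouped as the labels give it. For every gene the deposited table gives the authors' FPKM and their estimated count in each sample, the latter a whole number and not normalized. The submitters' processing notes name cutadapt 1.9, HISAT2 2.0.4, StringTie 1.3.4d, edgeR and DESeq2. The build is not given in the sources used here. Of 58825 identifiers, 58552 are in GENCODE release 29 (GRCh38), 47519 at the same position, and positions are printed as deposited. The counts are estimates, so precision was taken from the spread between samples. The study calls these biological replicates, and the labels do not name separate cultures.

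Genes with a mean of at least 0.1 FPKM were tested by edgeR 4.0.16 (quasi-likelihood, TMM, two-sided, R 4.3.3) with Benjamini-Hochberg adjustment over 17774 genes, after a check on simulated data. The standard error is the log2 fold change over the square root of F. Exact permutation tests used scipy 1.17.1. Alternatives were DESeq2 1.42.0, limma 3.58.1 on log2(FPKM + 0.1) and log2(FPKM + 1), RLE size factors, a minimum of 1 FPKM or none, the replicate number as a block, each library left out, summed overlapping genes, halved counts, and, chosen after seeing the data, a GC trend removed (span 0.5, fitted on genes averaging 100 counts or more). This trend was fitted on counts scaled by library total and TMM factors were applied on top, so a difference in scale between libraries can enter it again.

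The members and the lists were chosen with earlier results of these data known. Named were all members, in each list the 2 genes with the highest mean FPKM and the 2 with the smallest p, the 5 genes with the highest r to ADNP, tested genes within 500 kb of ADNP, genes overlapping a member, and pseudogenes named after members. Another item of this rule is not reported here. Proteome data and protein sequences were not analysed here.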

Additional observations from a re-analysis of the deposited data

How the results depend on the processing

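The counts of called partners and of called listed genes were 0 under every setting run for each, and the summing of overlapping genes was not run for the listed genes. Over all genes, 7 were called, against 263 with DESeq2, 12 with a minimum of 1 FPKM, 27 with the GC trend removed, and 3 to 24 with a library left out, 24 of them without MA PANC-1 2. CBX1, at 0.01, changed sign with limma on log2(FPKM + 0.1) and on log2(FPKM + 1), at −0.028 in both, and with a minimum of 1 FPKM, at −0.0057, and ranged from −0.040 to 0.11 with a library left out. ADNP was at 1.81 with limma on log2(FPKM + 1), a scale that understates low genes. CBX5 was no longer under 0.05 before adjustment without MA PANC-1 1, PANC-1 1 or PANC-1 3, nor with the GC trend removed, and CBX3 came under it without MA PANC-1 3 and with the replicate block, which made 2 partners. Same-numbered samples deviated together only weakly (correlations 0.03, 0.05 and 0.07, each sample correlating best with its own number), so they were taken to share only a number. With the replicate block, 0 genes were called over all genes, and ADNP, CBX3 and CBX5 were at 2.13, −0.29 and −0.31. With 3 samples a group, the SE of the partners was 0.11 to 0.17 on the log2 scale, and a difference of −0.30 with an SE of 0.11 did not pass the adjusted test.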
